A study of Mus musculus with 12 samples.

Results

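The Homer scaffolds and the Gq-IP3 calcium pathway were followed in the ribosome-bound RNA of cortical astrocytes from Fmr1 KO mice, set against WT mice. The 10 genes were chosen by symbol as the machinery downstream of the glutamate receptor mGluR5, and each symbol matched 1 of the 52550 features of the deposited count table. They are the scaffold genes Homer1, Homer2 and Homer3, the G protein genes Gnaq and Gna11, the phospholipase C beta genes Plcb1, Plcb3 and Plcb4, and the IP3 receptor genes Itpr1 and Itpr2. All 10 passed the filter on low counts, which left 14990 genes.

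The samples were 3 libraries of Fmr1 KO (Fmr1-/y) and 3 libraries of WT (Fmr1+/y) somatosensory cortex at postnatal day 40, on an FVB/C57 background. Mice of both genotypes carried the Aldh1l1-TRAP transgene, in which an eGFP-tagged ribosomal protein is made under the astrocyte promoter Aldh1l1, and the tagged ribosomes were pulled down with an anti-eGFP antibody. The labels do not tie a library to an animal, and the p-values below rest on library-to-library spread, which may be technical. The pull-down measures ribosome-bound RNA, and fewer cells of a type cannot be told apart from less bound RNA per cell.

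Binding of glutamate to mGluR5 activates the G protein alpha subunits Gq and G11. These switch on phospholipase C beta, which splits the membrane lipid PIP2 into IP3 and diacylglycerol. IP3 then opens IP3 receptors, the calcium channels of the endoplasmic reticulum. Long Homer proteins join into multimers and tie mGluR5 to IP3 receptors, while a short Homer1 form that neuronal activity induces, Homer1a, lacks the multimer domain and breaks these links. In astrocytes, calcium release through the type 2 IP3 receptor, the product of Itpr2, is the most studied. The count table gives 1 value per gene, so long and short Homer1 were not separated.

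The promoters of the scaffold genes are shown because Homer1 is the member known to be activity-induced, and the motif of the activity-responsive factor CREB bears on that. Sequences are RefSeq's, build GRCm38.p6, from 250 bases before to 50 after an annotated start, on the strand of the gene. They lie at chr13:93303507-93303806 (plus strand) for Homer1, chr7:81706876-81707175 (minus strand) for Homer2 and chr8:70282749-70283048 (plus strand) for Homer3. Capitals mark the CREB core site TGACGT or its reverse complement ACGTCA, searched on both strands with overlaps allowed.
Homer1: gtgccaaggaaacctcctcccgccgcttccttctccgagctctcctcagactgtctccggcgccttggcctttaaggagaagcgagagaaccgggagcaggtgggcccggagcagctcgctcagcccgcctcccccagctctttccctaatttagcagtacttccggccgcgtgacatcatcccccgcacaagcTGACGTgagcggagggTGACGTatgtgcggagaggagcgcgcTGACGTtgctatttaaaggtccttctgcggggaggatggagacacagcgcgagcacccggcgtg
Homer2: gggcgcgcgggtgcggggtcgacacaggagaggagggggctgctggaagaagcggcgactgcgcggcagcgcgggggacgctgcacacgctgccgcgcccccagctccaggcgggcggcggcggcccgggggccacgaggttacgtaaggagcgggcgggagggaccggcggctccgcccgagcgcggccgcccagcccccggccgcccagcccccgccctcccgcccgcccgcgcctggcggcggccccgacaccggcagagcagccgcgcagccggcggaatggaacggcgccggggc
Homer3: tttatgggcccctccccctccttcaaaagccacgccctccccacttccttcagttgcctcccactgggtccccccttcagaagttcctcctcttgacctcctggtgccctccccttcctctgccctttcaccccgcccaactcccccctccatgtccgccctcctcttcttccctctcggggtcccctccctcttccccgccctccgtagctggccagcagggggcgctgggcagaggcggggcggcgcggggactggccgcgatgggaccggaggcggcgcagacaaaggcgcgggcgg
The Homer1 window held 3 matches, all TGACGT, and the windows of Homer2 and Homer3 held 0. Of all 32851 promoter windows of the same length, 7.51% held at least 1 match and 0.201% held at least 3. A window was found for 9 of the 10 genes, with 12 windows in all. Only the most upstream of these for each gene was counted. For Homer3, Plcb3, Plcb4 and Itpr2 its start lay inside the annotated gene, so the region before the gene was not searched in full. Homer1 was the 1 gene with a match in the counted window, while the shares above are over all windows. A match is a string of letters and was not tested as a binding site.

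Depth and cell type content differed between libraries. Total counts were 10953958 to 21696862 in KO libraries and 19787520 to 22397202 in WT libraries. Features that collect ribosomal RNA reads held 35.6% and 45.1% of counts in KO libraries 14 and 16, against 0.892% to 7.45% in the other 4, which left KO library 16 with 6012112 other counts. Fmr1, the gene that is knocked out, stood at 4.32, 4.22 and 1.32 CPM in KO libraries 14, 16 and 18, below its 31.6, 38.4 and 37.0 CPM in WT libraries 13, 15 and 17. Astrocyte markers summed to 30773 to 36630 CPM in KO and 30811 to 38333 CPM in WT libraries over 20 genes, and all 20 were counted in every library. The 20 neuron markers were also counted in every library, with sums of 2015 to 2827 CPM in KO and 1452 to 2700.2 CPM in WT libraries. Of these neuron markers 17 had a log2 fold change above 0, with a median of 0.0996, and 0 were called. The astrocyte genes Slc1a3, Gja1 and Aldh1l1 averaged 1552, 610 and 411 CPM in KO and 1557, 640 and 429 CPM in WT. The neuron genes Snap25, Slc17a7 and Rbfox3 averaged 784, 187 and 40.3 CPM in KO and 722, 176 and 36.7 CPM in WT. Neuronal RNA was thus present in the pull-down, though CPM are not divided by transcript length. The 8 markers of oligodendrocyte precursors summed to 213 to 253 CPM in KO and 178 to 203 CPM in WT libraries, without overlap. Of 12 microglia markers 11 had a log2 fold change below 0, with sums of 58.2 to 66.7 CPM in KO and 65.2 to 82.1 CPM in WT libraries, and 0 genes of either list were called. Sums of oligodendrocyte, endothelial and mural or fibroblast markers overlapped between genotypes, though 9 of 12 oligodendrocyte markers had a log2 fold change above 0. The part of these lists in the values of the 10 genes was not tested.

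None of the 10 genes passed the test between genotypes. In edgeR's quasi-likelihood test with Benjamini-Hochberg adjustment over all genes, 0 of the 10 passed the threshold of 0.05, each with an adjusted p of 0.99998. The background share of genes called was 0%, since 0 of 14990 genes passed, with 265 at an unadjusted p under 0.05 (1.77%). At that unadjusted level 0 of the 10 members were found. The deleted gene Fmr1 ranked first, at a fold of 0.0866 of KO over WT (unadjusted p = 2.0e-05), yet its adjusted p was 0.2998, so this test did not call the known deletion either. A count of 0 members called therefore does not show that the members did not differ. DESeq2 called 8 genes (0.0534% of 14981), edgeR's exact test 9 (0.06%) and limma voom 0 (0%), and 0 members were among them in each tool. DESeq2 and the exact test both called Fmr1. Of the 10 genes, 7 had a log2 fold change below 0 and 3 above, where 50.4% of all genes lay below 0. In 0 of the 10 genes were the KO libraries wholly above or wholly below the WT libraries, as they were in 2.95% (above) and 3.25% (below) of all genes, 6.2% together. The median log2 fold change was -0.09 over the 10 genes and -0.0019 over all genes.

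**Figure D1:**
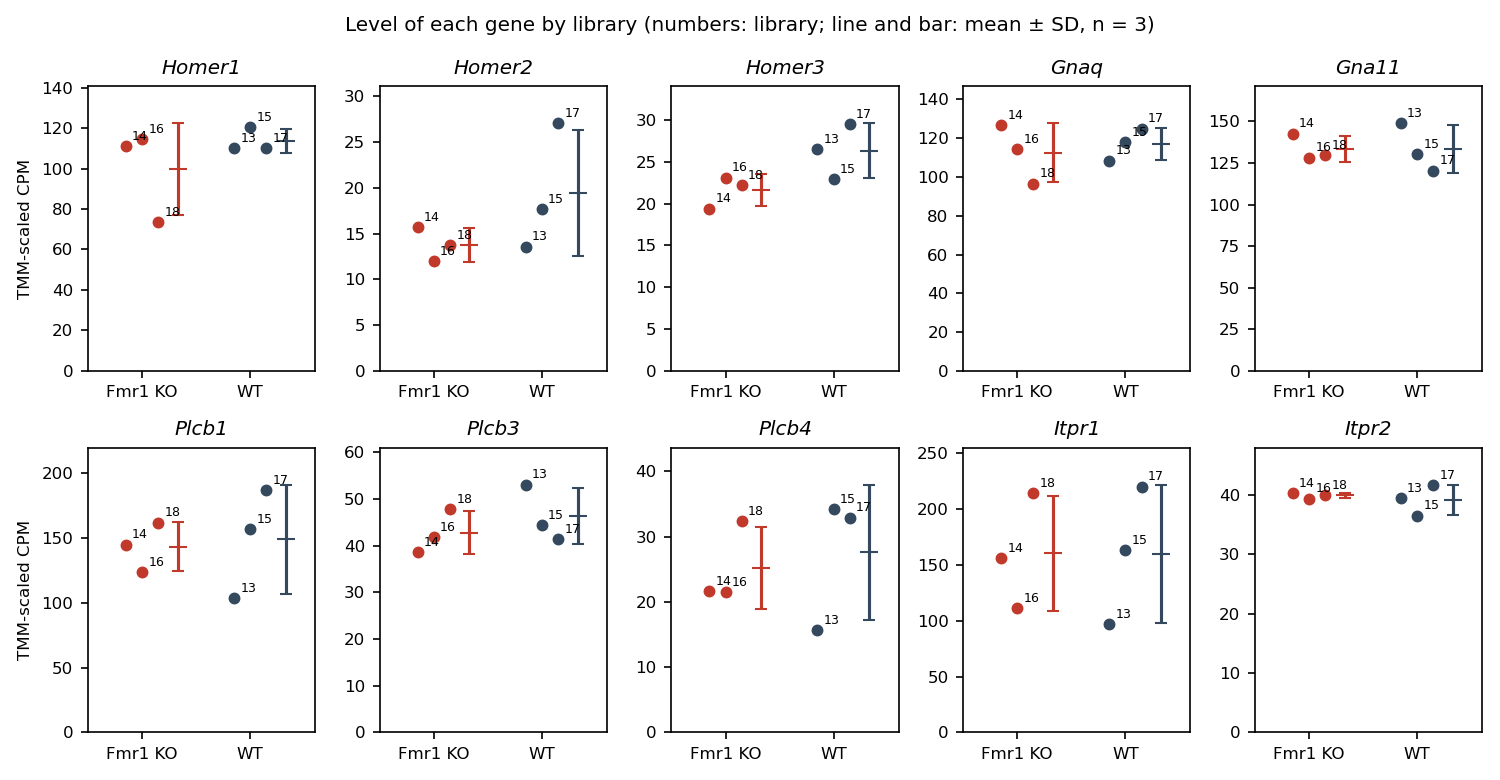
Level of each of the 10 genes in TMM-scaled CPM (y axis, from 0) in 3 Fmr1 KO libraries (left, red) and 3 WT libraries (right, dark), with library numbers beside the points and mean ± SD (n = 3) at the right of each group. In every panel the KO and WT points overlap. KO library 18 stands low for Homer1 and WT library 17 stands high for Homer2.

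Among the scaffolds, Homer2 had the lowest fold change of the 10 genes. It was at 15.7, 12.0 and 13.7 CPM in KO libraries 14, 16 and 18, against 13.6, 17.7 and 27.1 CPM in WT libraries 13, 15 and 17. The KO libraries lay close together near the low end of the wider WT range, with KO library 16 below every WT library and WT library 13 below KO libraries 14 and 18. The means were 13.8 ± 1.85 CPM in KO and 19.4 ± 6.91 CPM in WT (SD, n = 3 each). The log2 fold change was -0.49 (SE 0.26), and its 95% interval covers folds of 0.468 to 1.08 (edgeR quasi-likelihood, unadjusted p = 0.0962; exact permutation p = 0.3). The value moved with single WT libraries, to -0.18 without WT library 17 and to -0.69 without WT library 13 (edgeR quasi-likelihood, unadjusted p = 0.0202, adjusted p = 0.999). Without WT library 13, 2.79% of all genes had an unadjusted p under 0.05.

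Homer3 was lower in KO than in WT by a smaller amount but with less spread. It stood at 19.4, 23.1 and 22.2 CPM in KO libraries 14, 16 and 18, against 26.5, 22.9 and 29.5 CPM in WT libraries 13, 15 and 17. The groups overlapped only through KO library 16, which exceeded WT library 15 by 0.184 CPM. The log2 fold change was -0.29 (SE 0.16), with a 95% interval of the fold from 0.639 to 1.05 (edgeR quasi-likelihood, unadjusted p = 0.102; exact permutation p = 0.2). Between the 2 entries deposited for a library, Homer3 differed by up to 0.33 on the log2 scale after scaling to the entry total, the largest such difference of the 10 genes. Its expected counts were fractional in 12 of 12 entries, as RSEM gives where reads are shared between features, and those of Homer2 in 5 of 12. The other 8 genes had whole counts in every entry, whereas Homer2 and Homer3 are uncertain by how shared reads were split.

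Homer1 was level in 5 libraries and low in the remaining KO library. Its values were 111, 114 and 73.7 CPM in KO libraries 14, 16 and 18, against 110.2, 120.4 and 109.9 CPM in WT libraries 13, 15 and 17. The means were 99.7 ± 22.7 CPM in KO and 113 ± 5.98 CPM in WT (SD, n = 3 each), with a log2 fold change of -0.19 (SE 0.19; 95% interval of the fold 0.653 to 1.18; exact permutation p = 0.6). Without KO library 18 the log2 fold change was -0.0091. With KO library 18 alone against the 3 WT libraries it was -0.598, with an unadjusted p of 0.0253 and an adjusted p of 0.965 (edgeR quasi-likelihood), where the lone library is assumed to vary like the WT group and 3.63% of all genes had an unadjusted p under 0.05. The value of KO library 18 rests on 1904 counts.

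Immediate early genes, the class that the short Homer1 form belongs to, did not follow Homer1 across libraries. The 15 genes of that list summed to 426, 556 and 329 CPM in KO libraries 14, 16 and 18, against 248, 244 and 269 CPM in WT libraries 13, 15 and 17. KO library 18 was therefore above every WT library for the sum while it was lowest of all 6 for Homer1. KO libraries 14 and 16, highest for the sum, also had 35.6% and 45.1% of counts in ribosomal RNA features, and a link was not tested. Within the list 9 of 15 genes had an unadjusted p under 0.05, all higher in KO, against 1.77% of all genes, and 0 passed the adjusted threshold (edgeR quasi-likelihood). DESeq2, edgeR's exact test and the quasi-likelihood test without the filter on low counts each called 3 of the 15. These were Npas4, Fos and Junb, all higher in KO. Limma voom and every other setting tried, among them both covariates and each library left out, called 0. Arc and Fos belong to this list, as does Npas4, which stood at 8.84 ± 2.46 CPM in KO and 2.22 ± 0.468 CPM in WT (SD, n = 3 each). The part that the short form has in the Homer1 level was not tested.

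The coefficient of variation of the G protein genes was 13.5% in KO and 7.08% in WT for Gnaq, and 5.88% and 10.9% for Gna11. Gnaq, which encodes Gq alpha, was at 127, 114 and 96.6 CPM in KO libraries 14, 16 and 18 and at 108, 118 and 125 CPM in WT libraries 13, 15 and 17. As for Homer1, the lowest Gnaq value was that of KO library 18, and its highest that of KO library 14. The log2 fold change of Gnaq was -0.06 (SE 0.15; 95% interval of the fold 0.758 to 1.22). Gna11, which encodes the closely related G11 alpha, was at 143, 128 and 129.99 CPM in KO and 149, 130.4 and 120.5 CPM in WT libraries in the same order. Its means were 134 ± 7.85 and 133 ± 14.5 CPM (SD, n = 3 each), the log2 fold change was 0.0039 and the 95% interval of the fold ran from 0.804 to 1.25. The Gnaq to Gna11 count ratio within a library was 0.889, 0.891 and 0.743 in KO libraries 14, 16 and 18, against 0.728, 0.904 and 1.04 in WT libraries 13, 15 and 17, and did not separate the genotypes.

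The phospholipase C beta genes cleave PIP2 on activation by Gq, and their spread over libraries differed from gene to gene. Plcb1 was at 145, 123 and 162 CPM in KO libraries 14, 16 and 18, against 104, 157 and 187 CPM in WT libraries 13, 15 and 17. Plcb4 was at 21.7, 21.5 and 32.4 CPM in KO and at 15.6, 34.2 and 32.9 CPM in WT libraries in that order. Both were lowest in WT library 13, and the WT values spread further than the KO values, with a WT coefficient of variation of 28.2% for Plcb1 and 37.6% for Plcb4. Plcb3 ran from 38.7 to 47.8 CPM in KO and from 41.4 to 53.1 CPM in WT, and was highest in WT library 13. The log2 fold changes were -0.06 (SE 0.22) for Plcb1, -0.11 (SE 0.15) for Plcb3 and -0.12 (SE 0.31) for Plcb4, with 95% intervals of the fold of 0.675 to 1.37, 0.729 to 1.17 and 0.564 to 1.497. Unadjusted p was at least 0.47 for these 3 genes in edgeR's quasi-likelihood test.

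The IP3 receptor genes were at opposite ends of the spread. Over the 6 libraries together Itpr2 was the steadiest of the 10 genes. It was at 40.4, 39.4 and 40.04 CPM in KO libraries 14, 16 and 18, against 39.5, 36.5 and 41.6 CPM in WT libraries 13, 15 and 17. Its coefficient of variation was 1.20% in KO and 6.52% in WT, where counting alone gives 3.11% to 5.98% in the KO libraries and 3.03% to 3.29% in the WT libraries. The KO spread was thus below the counting error and the WT spread above it. Within WT, Homer1 had a lower coefficient of variation, at 5.27%. The log2 fold change of Itpr2 was 0.03 (SE 0.12), and the 95% interval limits the fold to between 0.841 and 1.23, the narrowest range of the 10. Itpr1, which encodes the type 1 receptor prominent in neurons, was at 156, 111 and 214 CPM in KO and 96.6, 163 and 219.9 CPM in WT libraries in that order. Its highest WT library was 2.28 times its lowest, and its highest KO library 1.92 times its lowest. The means were 160.3 ± 51.5 CPM in KO and 159.8 ± 61.7 CPM in WT (SD, n = 3 each), and the 95% interval of the fold, 0.599 to 1.68, is the widest upward of the 10.

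**Figure D2:**
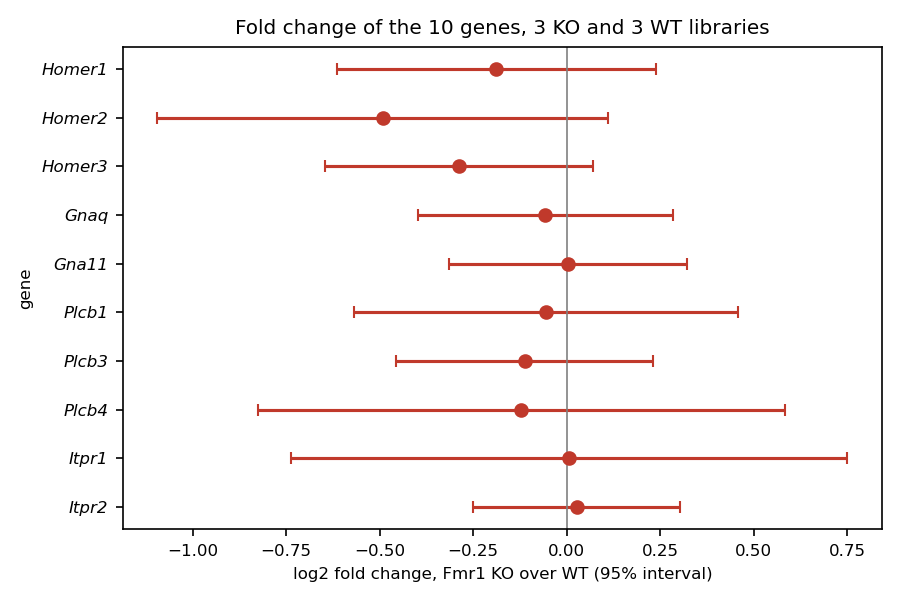
Log2 fold change of Fmr1 KO over WT (x axis) for each gene (y axis), from edgeR's quasi-likelihood fit on 3 KO and 3 WT libraries, with bars for the 95% interval. Every interval crosses 0. The scaffold genes Homer1, Homer2 and Homer3 lie furthest to the left, and Itpr2 has the shortest bar.

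The order of the libraries was shared by several of the more variable genes and by the neuron markers. The neuron marker sum was lowest in WT library 13, followed by KO library 16, KO library 14, WT library 15, WT library 17 and KO library 18. Itpr1 and Plcb1 took the same order in their 4 lower libraries, with WT library 17 ahead of KO library 18 at the top. Plcb4 also had its 3 lowest values in WT library 13 and KO libraries 16 and 14. The astrocyte marker sum had the opposite order, highest in WT library 13 and lowest in KO library 18. The order was not particular to neuron markers. The oligodendrocyte marker sum was also lowest in KO library 16 (658 CPM) and WT library 13 (724 CPM). It was highest in WT library 17 (1282 CPM) and KO library 18 (1511 CPM), which were also highest for the endothelial marker sum. Homer1, Gna11 and Itpr2 did not take the neuron order.

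**Figure D3:**
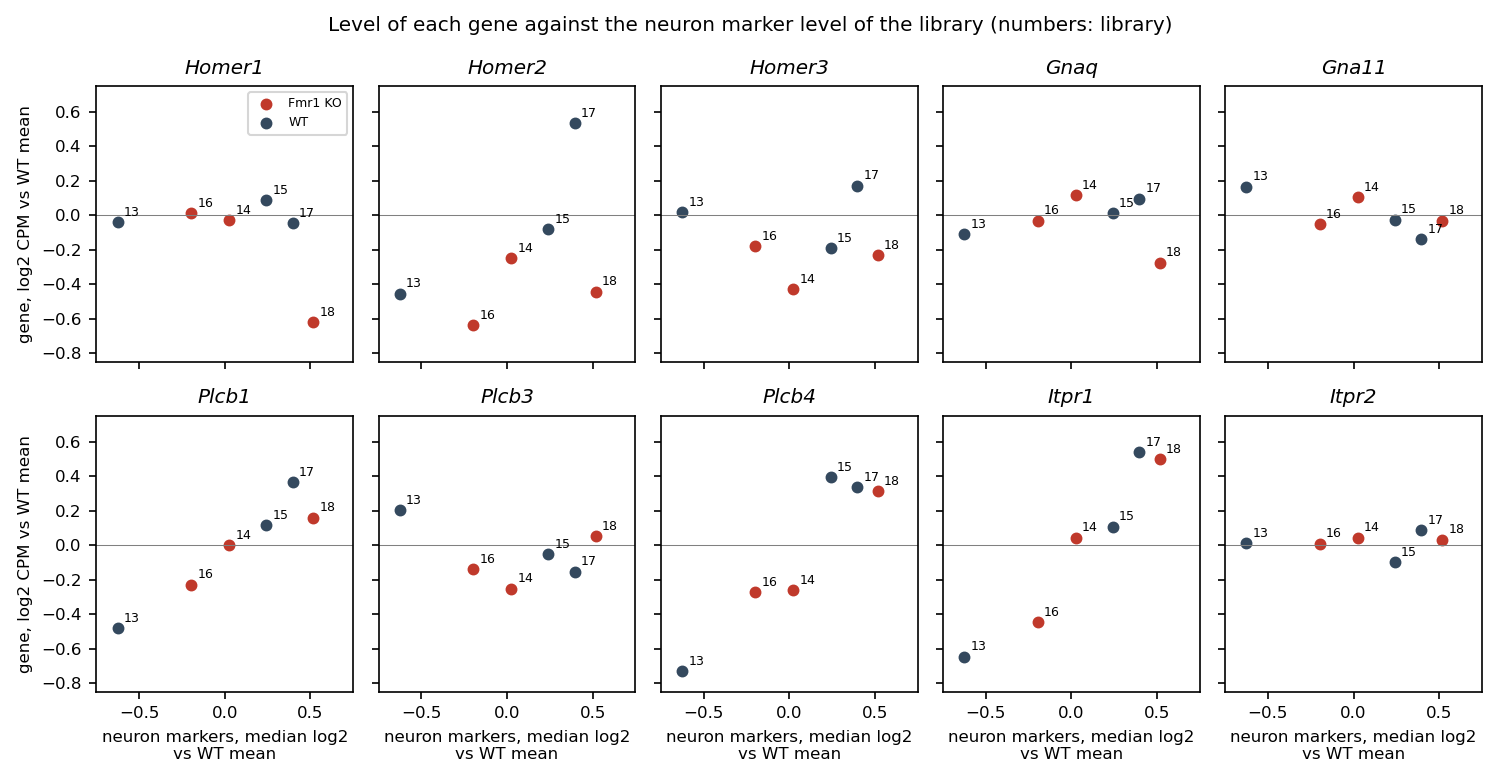
Level of each gene in each library as log2 CPM relative to the WT mean (y axis), against the median of the neuron markers in that library relative to their WT mean (x axis, log2), with red for Fmr1 KO, dark for WT and library numbers beside the points. Itpr1, Plcb1 and Plcb4 climb from WT library 13 at the left to the libraries at the right. Itpr2 stays flat, and KO library 18 lies below the others for Homer1.

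A fit with the neuron marker median as a covariate gave members with an unadjusted p under 0.05 where the fit on genotype alone gave none, and the share of all genes under that level was also larger, 3.81% against 1.77%. In that fit Homer2 had a log2 fold change of -0.59 (SE 0.24, unadjusted p = 0.0386) and Plcb4 one of -0.35 (SE 0.14, unadjusted p = 0.0392), and every adjusted p was at least 0.999 in edgeR's quasi-likelihood test. Itpr1 was at -0.25 (SE 0.17) there, against 0.0060 (SE 0.32) on genotype alone. Homer3 and Itpr2 stayed at -0.29 and 0.03.

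The libraries also differ in the first number of the date-like part of their titles, 5 for KO libraries 14 and 16 and WT library 13, and 6 for KO library 18 and WT libraries 15 and 17. Within the libraries titled 5, the mean log2 level of KO minus WT was 0.03 for Homer1, 0.01 for Homer2 and -0.32 for Homer3. Within those titled 6 it was -0.64 for Homer1, -0.67 for Homer2 and -0.22 for Homer3. Homer3 was thus the 1 scaffold gene below WT in both sets. Itpr1 was higher in KO within both, by 0.45 and 0.17, while Plcb1 was at 0.37 and -0.08, Plcb4 at 0.47 and -0.05, Gnaq at 0.15 and -0.33, and Plcb3 at -0.399 and 0.16. Itpr2 differed by 0.02 and 0.04 and Gna11 by -0.14 and 0.05. Each set has 1 library of 1 genotype, so no test was made within it. With this number as a covariate in the fit on all 6 libraries, no member passed, and the smallest adjusted p of a member was 0.971 in edgeR's quasi-likelihood test.

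**Figure D4:**
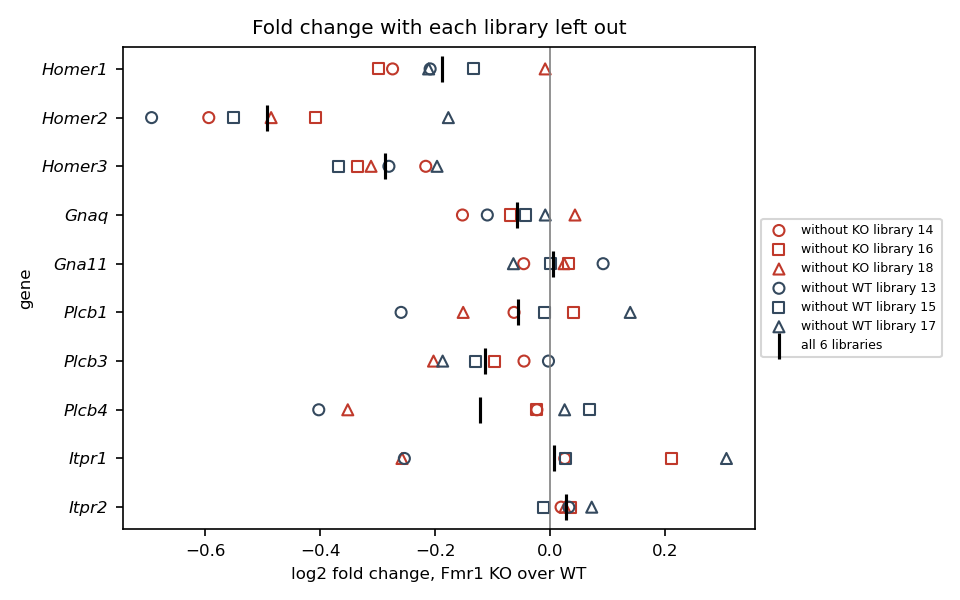
Log2 fold change of Fmr1 KO over WT (x axis) for each gene (y axis) with all 6 libraries (black bars) and with each library left out in turn (open symbols, red for a KO library and dark for a WT library). Homer1, Homer2, Homer3 and Plcb3 stay below 0 in all 6 such fits. Homer2 is nearest to 0 without WT library 17 and Homer1 without KO library 18.

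The balance within a family, which needs no scaling between libraries, did not separate the genotypes either. The Homer1 to Homer3 count ratio was 5.72, 4.96 and 3.31 in KO libraries 14, 16 and 18, against 4.15, 5.26 and 3.73 in WT libraries 13, 15 and 17. The Homer2 to Homer3 ratio was 0.807, 0.518 and 0.616 in KO and 0.512, 0.771 and 0.917 in WT libraries in that order. The Itpr1 to Itpr2 ratio was 3.86, 2.82 and 5.34 in KO and 2.45, 4.46 and 5.28 in WT. Over 8 such ratios the largest difference in mean log2 ratio was 0.23, for Homer1 to Homer2, and the exact permutation p ran from 0.6 to 1, with 1 for each after Benjamini-Hochberg adjustment. The smallest two-sided p that 3 libraries against 3 allow is 0.1. Counts are not divided by transcript length here, so a ratio compares libraries and not the levels of the 2 genes.

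Remaining genes of the same families were barely counted. Gna14 and Gna15 (Gq class alpha subunits), Plcb2 and Itpr3 had totals of 40, 90, 62 and 140 counts over all 6 libraries. Itpr3 averaged 1.01 CPM in KO and 1.002 CPM in WT, with the KO libraries from 0.282 to 2.17 CPM. Gna14 did not pass the filter on low counts and the other 3 were not called.

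The wider pathway lay near 0. Of 167 genes in 10 lists of partners, regulators and effectors, 156 were tested, 77 with a log2 fold change above 0 and 79 below, and the median was -0.0060. In edgeR's quasi-likelihood test 0 of the 156 passed and 2 (1.28%) had an unadjusted p under 0.05, against 1.77% of all genes. These were Rcan2, an inhibitor of the calcium-dependent phosphatase calcineurin, and the protein kinase C gene Prkch. Rcan2 was at 103, 100.3 and 79.2 CPM in KO libraries 14, 16 and 18, below its 132, 122 and 114 CPM in WT libraries 13, 15 and 17 (log2 fold change -0.38, SE 0.15). Prkch was at or under 1.01 CPM in each KO library and its WT values of 1.28, 6.52 and 0.957 CPM rest on WT library 15.

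Among the genes linked to Homer, 11 of 18 had a log2 fold change above 0 and 7 below, with a list median of 0.05 and 0 called. Grm5, the gene of mGluR5, was at 41.4, 39.9 and 41.5 CPM in KO and 29.9, 46.6 and 58.5 CPM in WT libraries in the order above. Homer2 has the same layout, with KO libraries close together and a wide WT range that is lowest in library 13 and highest in library 17. Trpc1, a cation channel that Homer binds, averaged 12.9 ± 1.73 CPM in KO and 15.5 ± 5.46 CPM in WT (SD, n = 3 each). Shank1, a postsynaptic scaffold, was at 17.3, 21.1 and 27.7 CPM in KO and 12.4, 16.8 and 25.8 CPM in WT libraries in that order. Of the 15 tested genes listed as regulators of Gq signalling, 8 were above 0 and 7 below, and their action on Gq was not tested. Rgs7 averaged 39.6 ± 7.27 CPM in KO and 51.8 ± 11.1 CPM in WT, and Rgs2, a Gq-directed inhibitor, 17.5 ± 2.12 CPM in KO and 14.2 ± 1.06 CPM in WT (SD, n = 3 each).

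The steps around IP3 and the calcium store showed equally small medians. The list medians of log2 fold change were 0.0018 for 10 enzymes of IP3 and inositol metabolism, -0.0064 for 18 genes of PIP2 supply, -0.06 for 18 genes of the diacylglycerol branch and 0.0044 for 14 regulators of IP3 receptors. They were 0.0027 for 14 genes of the calcium store, -0.05 for 12 of calcium transport at the plasma membrane, -0.03 for 18 calcium effectors and 0.01 for 19 other Gq-coupled receptors. Each list had 0 genes called. Pi4k2a, which makes a PIP2 precursor, was above WT in every KO library, at 54.96 ± 1.88 CPM in KO and 48.5 ± 4.09 CPM in WT. Camk2g, a calcium-calmodulin kinase gene, was likewise above WT in every KO library, at 259 ± 19.2 CPM in KO and 225 ± 10.8 CPM in WT (SD, n = 3 each). Of the 156 tested genes of the 10 lists, 2 lay wholly above WT and 2 wholly below. Over all genes these shares were 2.95% and 3.25%, so the lists held no excess of such genes.

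The authors' deposited table gives the same order of fold changes, with a smaller p-value than edgeR's quasi-likelihood test here for each member but Gna11 (0.988 in the authors' deposited table). The authors' deposited table lists a log2 fold change of -0.48 for Homer2 and -0.29 for Homer3, with p-values of 0.0161 and 0.0315 and adjusted values of 0.474 and 0.629. These 2 members were the ones under an unadjusted 0.05, both lower, as were 3.77% of the 14843 features of the authors' deposited table, and 6.92% in either direction. An adjusted value under 0.05 was listed for 0.573% of features and for 0 members in the authors' deposited table. Homer1 stood at -0.19 with a p-value of 0.189 in the authors' deposited table, and the other 7 members had p-values of at least 0.394. That table lists the 12 entries as columns, while each library counts once in the tests above, and no source used here names the test behind it.

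The genes with the profile most like each scaffold gene were sought among 9348 other genes with a mean of at least 10 CPM, by the root mean square difference of centred log2 CPM over the 6 libraries. For Homer1 they were Nras, Pde7b and Ankrd13c (0.0456, 0.0458 and 0.0464), which share its low value in KO library 18. Nras was at 70.3, 68.7 and 47.2 CPM in KO libraries 14, 16 and 18, against 69.4, 70.5 and 68.5 CPM in WT libraries 13, 15 and 17. For Homer2 they were Kcnq3, Eml6 and Rnf150 (0.111, 0.113 and 0.121), all highest in WT library 17, with Kcnq3 at 41.8, 32.4 and 33.7 CPM in KO and 34.7, 45.5 and 57.9 CPM in WT. For Homer3 they were Tmem134, Tusc3 and Tprkb (0.0506, 0.0625 and 0.0639). The nearest member of the pathway was less alike, Gnaq for Homer1 at rank 699, Plcb1 for Homer2 at rank 261 and Itpr2 for Homer3 at rank 851. The measure rests on 6 libraries and is a description.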

How the data were processed

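Ribosome-bound RNA from 3 Fmr1 KO and 3 WT libraries was sequenced after ribosomal RNA depletion, per the labels' protocols. The deposited count table has 12 entries, 2 per library, with RSEM expected counts of 52550 features, per the file headers. The submitters' processing notes name STAR 2.5.3a, RSEM 1.3.0, edgeR and mm10. No source used here gives the strand setting or annotation. A second table deposited by the authors holds log2 fold changes and mean log2 CPM, p-values with adjusted p-values, and a scaled signal per entry. Its scaled signal was not used here.

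The 2 entries of a library gave a median chi-square per feature of 0.467 to 0.494 (features with at least 20 counts), against 2.93 to 18.8 between libraries of a genotype. For most features they differed by about the sampling noise, so they were summed, rounded and counted as 1 sample. Counts were filtered with filterByExpr, scaled by TMM and tested by edgeR's quasi-likelihood method (R 4.3.3 with DESeq2 1.42.0, limma 3.58.1 and edgeR 4.0.16), Benjamini-Hochberg adjusted over 14990 genes. The fit had 4 residual degrees of freedom and was tested on simulated data. CPM are TMM-scaled, the SE comes from the F statistic, and log2 CPM use a prior count of 2. Counting errors cover counting only, since reads are not independent molecules.

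The members and lists were chosen with earlier results of these data known. Named are the members, Fmr1, Grm5, single astrocyte and neuron markers, and the 3 genes most like each scaffold gene. Also named are up to 3 genes per list with the smallest p at a mean of at least 1 CPM. Coordinates and promoters come from RefSeq GRCm38.p6, the assembly that mm10 names, matched by symbol. The genotypes share no replicate numbers, so no replicate block was fitted; the number in the titles (5 or 6) was tried as a covariate.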

Additional observations from a re-analysis of the deposited data

How the results depend on the processing

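No member was called under any alternative: the number of members called was 0 with edgeR's exact test, DESeq2, limma voom, RLE size factors, no filter on low counts, the title number as covariate, the ribosomal RNA features left out, the neuron marker median as covariate, first entries only, each library left out, and KO libraries 14 and 16 both left out. Genes called over the whole table numbered 9 with the exact test, 8 with DESeq2 and 6 without the filter, and 0 to 2 with a library left out, and Fmr1 was among them in each of those first 3. Members without overlap numbered 0 to 2 with a library left out. The 2 without WT library 13 were Homer2 and Plcb4, and without KO library 16 or WT library 15 Homer3 alone did not overlap. Non-overlap is by construction easier with fewer samples. The share over all genes was not counted with a library left out, so these counts show nothing particular to the members.

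Directions held for Homer1, Homer2 and Homer3 in all of these fits, with ranges over the left-out libraries of -0.299 to -0.0091, -0.69 to -0.18 and -0.37 to -0.197. The sign turned for Gna11 without the filter (-0.0022), with the title number as covariate (-0.042), without ribosomal RNA features (-0.0019), with first entries (-0.068) and without KO libraries 14 and 16 (-0.011). It turned with the title number as covariate for Plcb1 (0.14) and Plcb4 (0.20), with the neuron markers for Itpr1 (-0.25), and without KO libraries 14 and 16 for Plcb1 (0.14), Plcb3 (0.070) and Plcb4 (0.26). With a library left out, Gnaq ran from -0.15 to 0.043, Gna11 from -0.064 to 0.092, Plcb1 from -0.26 to 0.14, Plcb4 from -0.403 to 0.068, Itpr1 from -0.26 to 0.31 and Itpr2 from -0.012 to 0.072. The cause was not tested.

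The family ratios turned sign with first entries for Gnaq/Gna11 (0.059), Plcb1/Plcb3 (-0.034), Plcb4/Plcb3 (-0.054) and Itpr1/Itpr2 (-0.012). With a library left out the KO minus WT difference ran from -0.097 to 0.298 for Homer1/Homer3, -0.402 to 0.018 for Homer2/Homer3, -0.057 to 0.44 for Homer1/Homer2, -0.21 to 0.047 for Gnaq/Gna11, -0.25 to 0.35 for Plcb1/Plcb3, -0.43 to 0.29 for Plcb4/Plcb3, -0.091 to 0.18 for Plcb1/Plcb4 and -0.33 to 0.23 for Itpr1/Itpr2. Counts of members ran from 85 for Homer2 in KO library 16 to 5747 for Itpr1 in WT library 17. Folds inside a member's own 95% interval, narrowest for Itpr2 (0.841 to 1.23), were not resolved at these depths and spreads. No paired analysis was possible because the genotypes share no replicate numbers.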
